A study of Homo sapiens and Mus musculus with 69 samples.

Results

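In H82, a human small cell lung cancer (SCLC) line that the labels spell NCI-82, cells labelled STING1 KO were compared with STING1-intact cells after NOTCH1 was switched on with doxycycline, and every gene of the deposited table was a member of the comparison. Of 20516 genes in the table, 13903 had log2 values of 1 or more in 3 or more of the 21 H82 libraries and were tested. Both lines carried a lentiviral vector that expresses the human NOTCH1 intracellular domain (N1ICD) under doxycycline. The 4 groups, with 3 libraries each, were intact cells without doxycycline, intact cells with doxycycline, labelled STING1 KO cells without doxycycline and labelled STING1 KO cells with doxycycline. The knockout was made with CRISPR-Cas9 and a single target sequence, and single-cell clones were grown from it, but the labels do not say which clone or how many clones were sequenced. The cells with doxycycline were the adherent cells that remained after long-term culture, and the labels give no time on the drug, so a different time in intact and KO cells cannot be told apart from the genotype. No label says that the libraries of a group were separate cultures, so the tests measure the spread between these libraries.

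STING1 is an adaptor in the endoplasmic reticulum that is activated by cyclic GMP-AMP, which the sensor cGAS makes on cytosolic DNA. Active STING1 recruits the kinase TBK1, which phosphorylates IRF3, and the resulting type I interferon acts through receptor-bound kinases and the transcription factors they activate on interferon-stimulated genes and on the genes of MHC class I antigen presentation. Neuroendocrine SCLC cells usually express little STING1 and little MHC class I, and Notch signalling moves such cells away from the neuroendocrine state.

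The libraries did not all resemble the others of their group. Across the genes tested, replicate 1 of the intact cells without doxycycline had Pearson's r of 0.958 and 0.964 with the other replicates, which had 0.993 with each other. Replicate 2 of the intact cells with doxycycline had 0.973 and 0.975, against 0.990 between its partners, and replicate 1 of the KO cells with doxycycline had 0.967 and 0.975, against 0.984. Calls of genes named below that were lost without replicate 2 of the intact cells with doxycycline are named beside the gene group they belong to. The values hold no read counts, but the steps between the lowest values gave the depth relative to replicate 1 of the intact cells with doxycycline, which was 0.812 to 1.06 in the intact libraries and 0.563 to 0.646 in the KO libraries. NEUROD1, the factor that defines the subtype of H82, had log2 values of 11.80 to 14.41 without doxycycline and 2.41 to 6.68 with it. POU2F3 reached at most 1.06, PTPRC 0.06, CD3E 0.14 and LYZ 0.14, and ATOH1 and SCGB1A1 were listed at 0 in all 12 libraries.

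STING1 RNA did not fall in the labelled KO cells. STING1 (chr5:138855118-138862520, GRCh37, minus strand, listed under its older symbol TMEM173) had log2 values of 0.04, 0.00 and 0.00 in intact cells and 0.55, 0.52 and 0.11 in KO cells without doxycycline. With doxycycline it had 1.07, 1.17 and 1.10 in intact cells and 1.27, 1.53 and 2.04 in KO cells. The KO libraries were the higher ones in both settings and the groups did not overlap. The difference with doxycycline was 0.50 (SE 0.18, adjusted p = 0.036 by limma, below the fold required for a call), and without it 0.38 (adjusted p = 0.11). Both lines raised STING1 on doxycycline, by 1.10 in intact and 1.22 in KO cells. A small insertion or deletion can leave the transcript in place, so these values do not check the loss of the protein. The paper shows an immunoblot of single-cell STING1 KO clones of H82, but the labels do not say whether those clones were sequenced. The KO name is therefore used here as a label.

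NOTCH1, read from vector and endogenous transcripts together, was higher in KO cells with doxycycline. It had log2 values of 4.75, 4.26 and 5.56 in intact cells and 5.97, 7.41 and 7.48 in KO cells. The groups did not overlap, and the difference was 2.10 (SE 0.44, adjusted p = 0.0011). Without doxycycline, the values were 1.45, 0.88 and 1.15 against 2.15, 1.77 and 1.89 (difference 0.77, adjusted p = 0.18), and the difference between the 2 settings was 1.33 (adjusted p = 0.19). The NOTCH1 level stood beside the genotype in every comparison with doxycycline below, and its part in them was not tested.

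**Figure D1:**
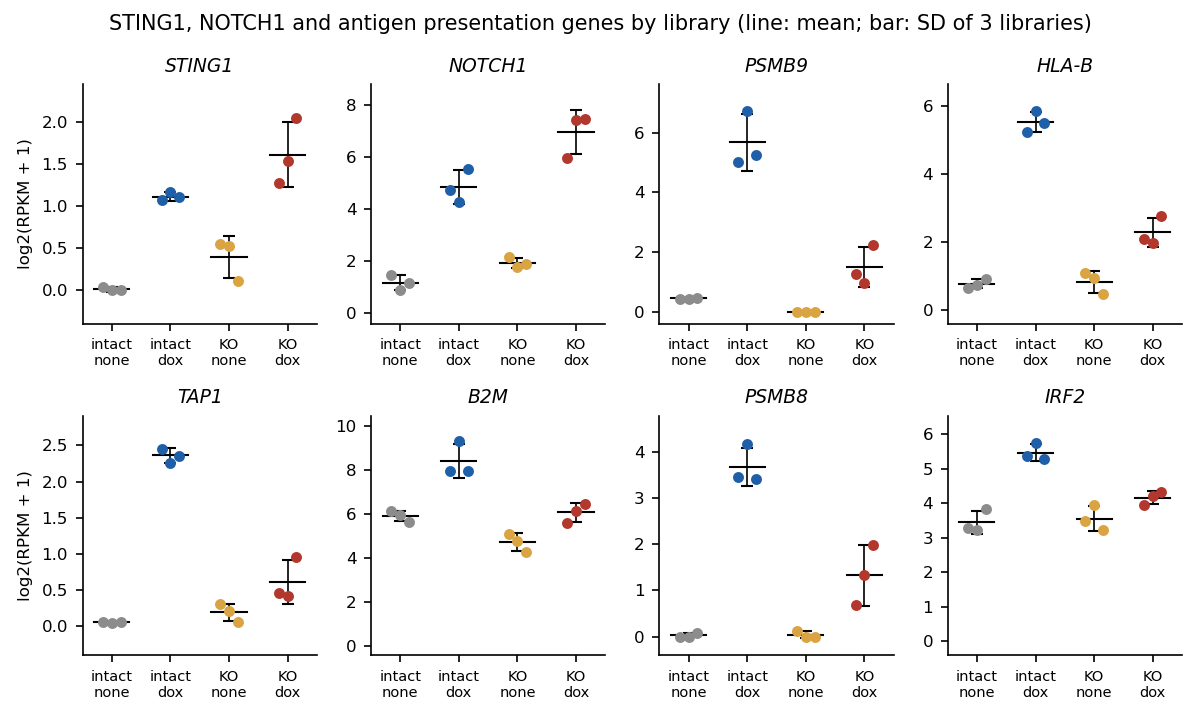
Expression of STING1, NOTCH1 and 6 antigen presentation genes (PSMB9, HLA-B, TAP1, B2M, PSMB8, IRF2) in the 12 libraries. The vertical axes show log2(RPKM + 1), each point is a library, lines are means and bars are the SD of 3 libraries; "dox" is doxycycline and "none" is no doxycycline. PSMB9, PSMB8, HLA-B and TAP1 are high in intact cells with doxycycline only, while B2M is lower in KO cells in both settings.

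With doxycycline, 1074 genes were called higher in KO cells (7.72% of the genes tested) and 1217 were called lower (8.75%), where a call needed an adjusted p under 0.05 and a log2 difference of at least 1. The libraries of the groups did not overlap for 1025 and 1180 of these genes. Without doxycycline, KO cells already differed from intact cells at 923 higher (6.64%) and 1073 lower (7.72%) genes. Of the 1074 genes higher with doxycycline, 408 (38.0%) were also called higher without it, 16 were called lower without it, and 650 were not called. Of the 1217 lower genes, 409 (33.6%) were also called lower without doxycycline, 11 were called higher and 797 were not called. A missing call is not a difference between the settings. The difference between the settings was itself tested. It passed an adjusted p under 0.05, with the sign of the doxycycline difference, for 203 of the 650 and 244 of the 797 genes. Over all genes 1288 (9.26%) passed it in either direction. The 650 and 797 genes were chosen by their calls in the same libraries, which favours a difference of that sign. Their shares are therefore a description and cannot be set against the 9.26% as a test. Genes called in both settings had median differences of 1.56 with and 1.55 without doxycycline for those higher, and -1.32 in both for those lower. A call in both asks for the same minimum in each setting, which draws these medians together. Genes chosen only by their call without doxycycline had medians of 0.92 with and 1.44 without it for those higher. For those lower the medians were -0.81 and -1.29. Across the 13903 genes, Pearson's r between the 2 differences was 0.54, a description over genes from separate libraries that share the origin of each line. The median difference over all genes was -0.10 with and -0.11 without doxycycline.

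**Figure D2:**
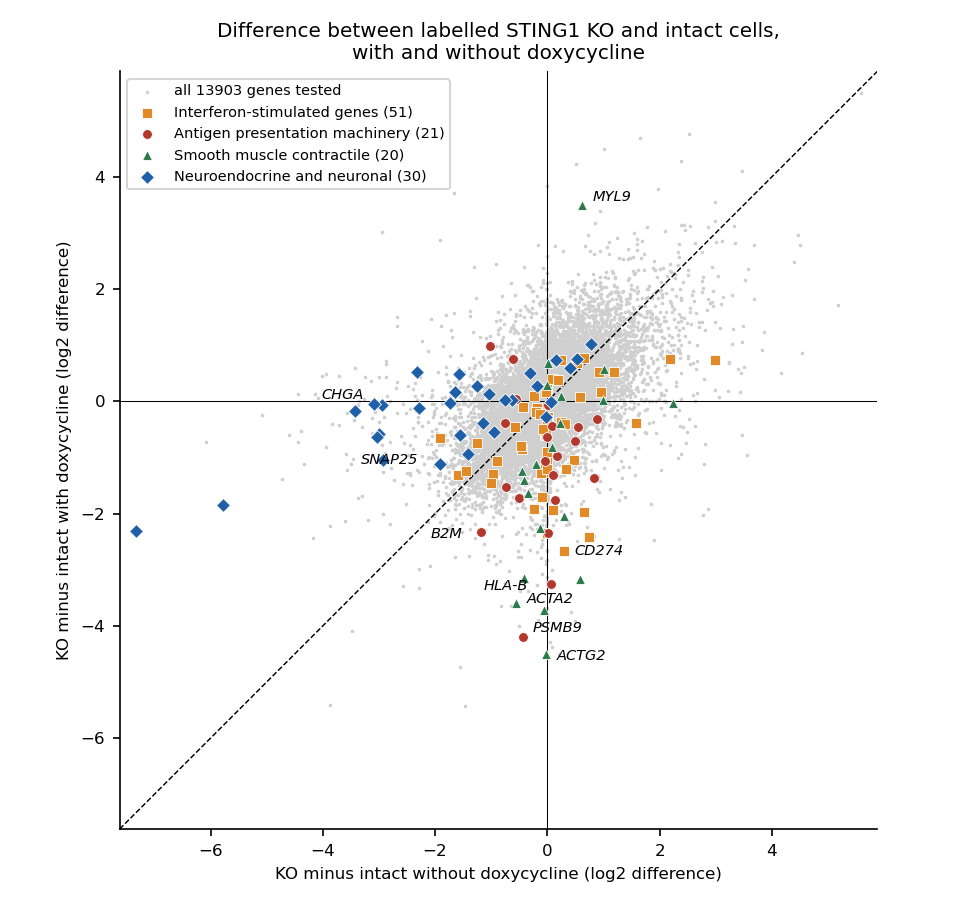
Difference between labelled STING1 KO and intact cells for each of the 13903 genes tested. The horizontal axis shows the log2 difference without doxycycline and the vertical axis the log2 difference with it; the dashed line marks equal differences, and symbols mark 4 gene lists with the number tested, of which the smooth muscle list was drawn up after values had been seen. Antigen presentation and contractile genes extend downwards near 0 on the horizontal axis, and neuroendocrine genes extend to the left near 0 on the vertical axis.

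MHC class I antigen presentation separated the lines with doxycycline and hardly without it. Of 21 genes tested in this list, 10 were called lower in KO cells and 0 higher, with a median difference of -0.98. Without doxycycline 2 were called lower and the median was 0.01. In that setting PSMB8, TAP1 and NLRC5 had means of 0.19 or less in both lines, so a lower KO value could hardly show. Over all genes, 8.75% were called lower and 7.72% higher with doxycycline, and 7.72% and 6.64% without it. These shares are the reference for the lists below. The 10 lower genes were B2M, HLA-B, HLA-C, HLA-E, TAP1, TAP2, PSMB8, PSMB9, PSME1 and IRF2. Without replicate 2 of the intact cells with doxycycline HLA-E lost its call, at -1.06, although the count was again 10, and centring genes within bins of GC content gave 11. The difference between the settings passed an adjusted p under 0.05 for 11 genes of the list, of which 9 were negative, against 9.26% of all genes. In a bulk sample, fewer cells with the genes on and less RNA in each cell cannot be told apart.

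TAP1, a subunit of the peptide transporter, and B2M, the invariant light chain of MHC class I, are shown with the bases before their starts, because these windows hold the letters of an interferon-stimulated response element. The sequences are the 250 bases before the start of the RefSeq gene on GRCh38.p14, a later build than that of the values, written 5′ to 3′ along the gene, with matches on either strand to the core of that element, GAAA and GAAA with any 2 bases between them, in capitals.
TAP1 (chr6:32853705-32853954, minus strand): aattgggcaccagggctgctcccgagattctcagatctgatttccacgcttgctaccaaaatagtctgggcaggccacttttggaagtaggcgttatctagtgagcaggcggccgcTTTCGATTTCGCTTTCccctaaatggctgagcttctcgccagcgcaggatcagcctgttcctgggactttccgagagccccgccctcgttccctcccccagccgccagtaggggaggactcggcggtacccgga
B2M (chr15:44711267-44711516, plus strand): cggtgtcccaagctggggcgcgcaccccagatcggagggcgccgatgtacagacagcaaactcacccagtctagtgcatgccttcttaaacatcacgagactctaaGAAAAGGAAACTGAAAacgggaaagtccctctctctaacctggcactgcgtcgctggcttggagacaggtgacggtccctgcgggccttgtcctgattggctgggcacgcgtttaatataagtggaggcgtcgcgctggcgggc
The 2 overlapping matches in TAP1 lie on the opposite strand and begin 134 and 128 bases before the start, and the 2 overlapping matches in B2M begin 144 and 138 bases before it. A further RefSeq window of TAP1 (chr6:32852762-32853011) held no match. These letters occurred in 3.02% of all 35116 RefSeq windows of this length. They occurred in 3 of the 8 genes lower with doxycycline that had a window (B2M, TAP1, TAP2) and in 7 of all 17 antigen presentation genes with one. A gene was counted when any of its windows held a match, so these counts cannot be set directly against the share of windows. A match is a description of the letters and not evidence of a site in use.

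The immunoproteasome gene PSMB9 had the largest difference of the list. Its log2 values with doxycycline were 5.02, 6.74 and 5.25 in intact cells and 1.26, 0.95 and 2.24 in KO cells, and without doxycycline 0.43, 0.43 and 0.45 in intact cells. The groups with doxycycline lay far apart (difference -4.19, SE 0.37, adjusted p = 4.4e-07), and without the drug the KO libraries were listed at 0. PSMB8, the neighbouring immunoproteasome subunit, had 3.45, 4.16 and 3.42 in intact cells and 0.68, 1.33 and 1.99 in KO cells with doxycycline. It was at 0.12 or less in every library without the drug, and its difference with the drug was -2.34 (SE 0.26, adjusted p = 4.2e-06).

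HLA-B, a classical MHC class I heavy chain, had log2 values of 5.25, 5.85 and 5.51 in intact cells and 2.10, 1.98 and 2.77 in KO cells with doxycycline. Without it, the values were 0.65, 0.74 and 0.91 against 1.08, 0.95 and 0.47, which overlapped. The difference was -3.25 with doxycycline (SE 0.30, adjusted p = 7.3e-07) and 0.06 without it (adjusted p = 0.91), and these differed by -3.32 (adjusted p = 7.8e-05). HLA-C had 5.13, 5.52 and 5.09 in intact cells against 3.65, 3.67 and 4.29 in KO cells (difference -1.37, adjusted p = 0.002). Without doxycycline its difference was 0.83 in the other direction (adjusted p = 0.044, short of the fold required). HLA genes share reads with one another, so their single values depend on how the authors' counting split those reads.

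TAP1 rose on doxycycline in intact cells, to log2 values of 2.45, 2.26 and 2.35, and was 0.46, 0.42 and 0.95 in KO cells. The difference was -1.75 (SE 0.13, adjusted p = 8.1e-08), against 0.14 without doxycycline, where the gene was at 0.30 or less in all 6 libraries. Its partner TAP2 had a difference of -1.53 with doxycycline (adjusted p = 8.7e-05) and of -0.73 without it (adjusted p = 0.022). B2M was the only member called lower in both settings. It had 7.93, 9.31 and 7.95 in intact and 5.60, 6.15 and 6.45 in KO cells with doxycycline, and 6.11, 5.96 and 5.64 against 5.09, 4.79 and 4.29 without it. Its differences were -2.33 (adjusted p = 0.00011) and -1.18 (adjusted p = 0.018), and the change between the settings, -1.15, did not pass (adjusted p = 0.17).

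IRF2, a regulator of class I genes, was lower with doxycycline, with 5.38, 5.76 and 5.28 in intact and 3.95, 4.22 and 4.32 in KO cells (difference -1.31, adjusted p = 0.0014). IRF1 had a difference of -0.98 (adjusted p = 0.0014) and NLRC5, the class I transactivator, one of -0.63 (adjusted p = 0.00071), both short of the fold required. TAPBP, which bridges the transporter to MHC class I, had 4.57, 4.11 and 4.49 against 3.92, 4.38 and 4.68, which overlapped, and a difference of -0.06. CALR and PDIA3, chaperones of the peptide loading complex, were the 2 members whose change between the settings was positive and passed an adjusted p under 0.05. CALR differed by 0.98 with doxycycline and was called lower without it, by -1.02. A shorter list of 8 antigen presentation genes had 6 lower with doxycycline and 0 without. It was chosen with these samples in view and is not independent evidence of the direction.

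KO cells did not lose the whole response to doxycycline. In intact cells 14 of the 21 antigen presentation genes were called higher with than without the drug, and in KO cells 6 were, against 14.7% and 12.2% of all genes called higher in those comparisons (12.4% and 8.07% were called lower). These responses share libraries with the comparison of KO and intact cells, so they are set side by side and not tested against it. HLA-B rose by 4.77 in intact and 1.45 in KO cells, PSMB8 by 3.65 and 1.29, and B2M by 2.50 and 1.35. TAP1 rose by 2.31 in intact cells, and its 0.42 in KO cells was not called.

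Of 51 interferon-stimulated genes tested, 17 were lower in KO cells with doxycycline and 0 higher, against 8.75% and 7.72% of all genes. The median difference was -0.58. Without doxycycline 3 were higher (IFITM2, IFITM3, IRF9) and 4 lower, among them USP18 and CXCL11, with a median of 0.00. In that setting several members, among them IFIT2, IFIT3, SP100, SP110 and RTP4, had means of 0.10 or less in both lines. A lower KO value could hardly show for these genes. Over all genes 6.64% were called higher and 7.72% lower without doxycycline. Without replicate 2 of the intact cells with doxycycline 15 were lower, and without that library and both others that stood apart 10 were. Centring within GC bins gave 10. Of the 40 members outside chromosomes 2, 3 and 8, whose genes were broadly lower in KO cells, 11 were lower, with a median of -0.39. In intact cells 37 of the 51 rose on doxycycline, and in KO cells 26 did.

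GBP1, an interferon-induced GTPase, had log2 values with doxycycline of 4.97, 6.07 and 5.42 in intact and 4.10, 3.27 and 3.26 in KO cells (difference -1.94, SE 0.27, adjusted p = 4.4e-05). IFIH1, the RNA sensor MDA5, had 7.45, 7.87 and 7.45 against 4.89, 6.00 and 5.96 (difference -1.97, adjusted p = 0.0073). Both were lower in every KO library with doxycycline. SP110, a nuclear body protein, had 3.29, 3.28 and 3.30 against 1.27, 1.65 and 1.83 (difference -1.71, adjusted p = 1.2e-07). Without doxycycline the means in intact and KO cells were 0.48 and 0.58 for GBP1, 0.44 and 1.11 for IFIH1 and 0.10 and 0.01 for SP110. ISG15, a ubiquitin-like modifier, had 4.54, 4.81 and 4.71 against 3.38, 3.46 and 4.09, a difference of -1.05 (adjusted p = 0.016) that lay close to the fold required and was not called, at -0.98, without replicate 2 of the intact cells with doxycycline. The same core letters occurred in 7 of the 13 lower members with a promoter window and in 23 of the 40 members tested that had one.

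USP18, which limits interferon receptor signalling, was lower in KO cells with and without doxycycline. It had 5.01, 5.09 and 4.81 in intact and 3.29, 4.41 and 3.49 in KO cells with doxycycline, and 5.93, 6.19 and 6.33 against 4.42, 4.58 and 5.09 without it. The groups were apart in both settings (differences -1.24 and -1.45, adjusted p = 0.015 and 0.0066), and the change between them, 0.21, did not pass (adjusted p = 0.86). The call with doxycycline was lost without replicate 2 of the intact cells with doxycycline, where the difference was -1.18, and after centring within GC bins. Of 21 receptor and JAK-STAT genes tested, 7 were lower with doxycycline, against 8.75% of all genes, and the median was -0.82. Among the 7 were IFNGR1, IL6ST, IL4R and OSMR, while TYK2, a receptor-bound kinase, was higher. Of these, IFNGR1, IL6ST and TYK2 lost their calls both without that replicate, with differences of -0.72, -0.98 and 0.89, and after GC centring. IL4R, an interleukin-4 receptor chain, had 5.10, 5.03 and 5.16 against 2.18, 2.33 and 3.15 (difference -2.54, adjusted p = 6.1e-07), and OSMR, the oncostatin M receptor, 3.74, 3.55 and 3.64 against 1.46, 1.34 and 1.99 (difference -2.04, adjusted p = 8.9e-08). Without doxycycline IL4R differed by -0.47 and OSMR by -0.05, neither past the test. In that setting OSMR was at 0.17 or less in both lines, so a lower KO value could hardly show. IRF9, a DNA-binding subunit of the factor that interferon activates, was higher in KO cells without doxycycline (1.58, adjusted p = 0.00033) and differed by -0.39 with it (adjusted p = 0.28).

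Of 22 genes tested in the signalling chain around STING1, 2 were higher with doxycycline and 1 was lower. Over all genes 7.72% were called higher and 8.75% lower, so these counts lay near the shares of all genes. The higher ones were TRIM56 and SLC19A1, a cyclic dinucleotide importer, and the lower one was YIPF5. The median was -0.12, against -0.10 over all genes. No gene of the list was called without doxycycline, against 6.64% of all genes higher and 7.72% lower. Without replicate 2 of the intact cells with doxycycline, or after centring within GC bins, none of the 3 was called. TBK1 had 2.95, 3.16 and 3.05 in intact and 2.76, 2.81 and 3.01 in KO cells with doxycycline (difference -0.19), and IRF3 2.13, 1.99 and 2.16 against 2.22, 2.48 and 2.49 (difference 0.30), neither past the test. The gene of cGAS, listed as MB21D1, reached at most 1.22 and IFNB1 at most 0.61 in the 21 H82 libraries, and both fell below the filter. Of 8 RNA sensing genes tested, IFIH1 was the 1 that was lower. NF-kB family and feedback genes had 0 calls among 20 with doxycycline, and 3 were higher without it (BCL3, TNFAIP2, IKBKG).

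Among 15 tested ligands and receptors that NK and T cells engage, CD274, PDCD1LG2, CD80 and CD58 were lower in KO cells with doxycycline and CD40 was higher. CD274, which encodes PD-L1, had 5.39, 5.33 and 4.58 in intact and 2.21, 1.86 and 3.23 in KO cells (difference -2.67, SE 0.36, adjusted p = 2.6e-05), against 0.29 without doxycycline. CD40, a costimulatory receptor, moved the other way and was already higher without the drug. It had 0.22, 0.11 and 0.11 in intact and 3.83, 3.95 and 4.03 in KO cells with doxycycline (difference 3.79, adjusted p = 4.1e-07), and 0.73, 2.32 and 2.08 against 3.70, 3.81 and 3.57 without it (difference 1.98, adjusted p = 0.00024). Of 16 chemokine and cytokine genes, IL32, IL33, CSF1 and TGFB2 were lower and CXCL12 and TGFB1 higher with doxycycline. Without replicate 2 of the intact cells with doxycycline IL32 and CXCL12 lost their calls, at -1.53 and 1.21, as did CD58 of the ligands, at -0.69, and after GC centring IL33, TGFB1 and CD58 did. TGFB2 had 8.75, 8.27 and 8.18 against 5.66, 3.98 and 5.45 (difference -3.37, adjusted p = 8.3e-06), while TGFB1 differed by 1.50 (adjusted p = 0.001). The IL32 call (-1.82, adjusted p = 0.049) lay close to the threshold, and without replicate 1 of the KO cells with doxycycline the difference was -0.90 and not called. FAS, a death receptor, had 1.93, 3.07 and 2.00 in intact and 0.27, 0.33 and 0.27 in KO cells. GSDME, listed under its older symbol DFNA5, differed by -1.33. These were the 2 of 20 cell death genes that were lower, near the 8.75% of all genes. BBC3 was higher, a call lost both without replicate 2 of the intact cells with doxycycline and after GC centring. HLA-DQB1 and CTSS were the 2 of 7 tested MHC class II pathway genes that were lower with doxycycline, and HLA-DQB1 was lower without it too (-1.48 and -2.11).

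**Figure D3:**
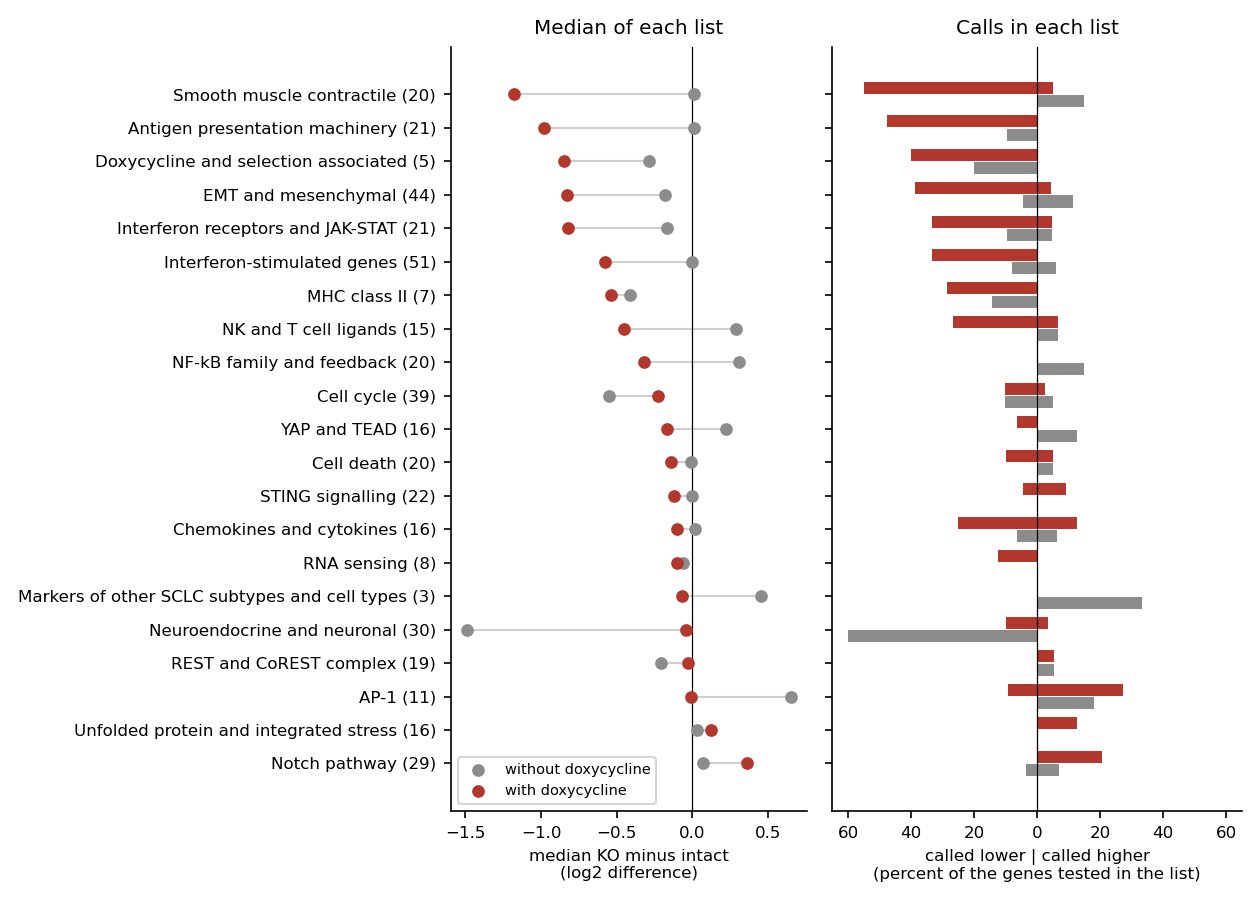
Summary of the gene lists. The left panel shows the median log2 difference between labelled STING1 KO and intact cells without (grey) and with (red) doxycycline, and the right panel the percentage of each list called lower (left of 0) or higher (right of 0), with the number of genes tested in parentheses. With doxycycline the smooth muscle and antigen presentation lists have medians of -1.18 and -0.98. The list of responses to doxycycline or selection has -0.85 and the EMT list -0.83. Without doxycycline the neuroendocrine list has -1.49.

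Contractile genes were also lower in KO cells with doxycycline. A list of 20 smooth muscle contractile genes was drawn up after some of their values had been seen. With doxycycline 11 were lower in KO cells and 1 was higher, against 8.75% and 7.72% of all genes. The median was -1.18. Without doxycycline 0 were lower and 3 higher (CNN2, TPM2, SMTN), with a median of 0.01. ACTG2 was at 0.05 or less in both lines without doxycycline, so a lower KO value could not show there. The 11 were ACTA2, ACTG2, TAGLN, CNN1, CALD1, MYH11, MYLK, TPM1, LMOD1, ACTN1 and VCL. The count was 11 without replicate 2 of the intact cells with doxycycline and also after centring within GC bins, where TPM1 lost its call. Of the 44 genes tested in the epithelial-mesenchymal transition (EMT) list, which shares 6 genes with it, 17 were lower, 2 were higher and the median was -0.83, and 15 were lower both without that replicate and after GC centring. Without doxycycline 5 EMT genes were higher and 2 lower, and 10 were lower when replicate 1 of the intact cells without and replicate 2 of those with doxycycline were left out. In intact cells 37 of the 44 EMT genes rose on doxycycline, and in KO cells 31 did.

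ACTA2, smooth muscle alpha-actin, had log2 values of 10.46, 10.30 and 10.29 in intact and 7.16, 6.13 and 6.95 in KO cells with doxycycline. Without the drug the values were 0.04, 0.69 and 0.92 in intact cells and 0.00 in each KO library, so both lines rose steeply and the KO line less far. The difference was -3.60 (SE 0.22, adjusted p = 6.1e-09). ACTG2, smooth muscle gamma-actin, had 8.25, 7.85 and 8.07 against 4.26, 2.86 and 3.55 (difference -4.50, SE 0.23, adjusted p = 7.3e-10), and its highest value without doxycycline was 0.05. The actin genes are close in sequence, and reads of one may be counted for another. CNN1, calponin, had 6.09, 6.39 and 5.86 against 3.29, 2.63 and 2.97 (difference -3.15, adjusted p = 2e-08), and MYH11, smooth muscle myosin heavy chain, 5.55, 4.09 and 5.79 against 1.14, 1.69 and 1.47 (difference -3.72, adjusted p = 2.4e-07).

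MYL9, a regulatory myosin light chain, went against its list. It had 1.46, 0.94 and 0.82 in intact and 5.68, 4.02 and 4.03 in KO cells with doxycycline (difference 3.50, SE 0.32, adjusted p = 4.8e-07). Without the drug it was listed at 0.00 in the intact libraries and had 0.67, 0.48 and 0.72 in KO cells, a difference that did not pass. SRF, the factor that drives many contractile genes, differed by 0.10 and its coactivator MYOCD by 0.29 with doxycycline, neither past the test.

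The promoter of ACTG2 is shown because 2 CArG boxes, the letters that SRF is known to bind, stand in capitals in the 250 bases before its start (RefSeq, GRCh38.p14).
ACTG2 (chr2:73892758-73893007, plus strand): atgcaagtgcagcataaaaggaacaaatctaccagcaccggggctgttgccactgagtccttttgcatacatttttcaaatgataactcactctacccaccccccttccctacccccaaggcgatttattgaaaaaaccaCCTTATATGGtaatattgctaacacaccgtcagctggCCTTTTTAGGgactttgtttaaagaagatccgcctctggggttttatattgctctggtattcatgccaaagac
They begin 110 and 73 bases before the start. A CArG box, searched on both strands, occurred in 1.16% of all windows, in 3 of the 9 lower contractile genes that had a window (ACTG2, ACTN1 and MYLK) and in 7 of the 15 contractile genes tested that had one. Genes were again counted by any of their windows, which is not the unit of the 1.16%.

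**Figure D4:**
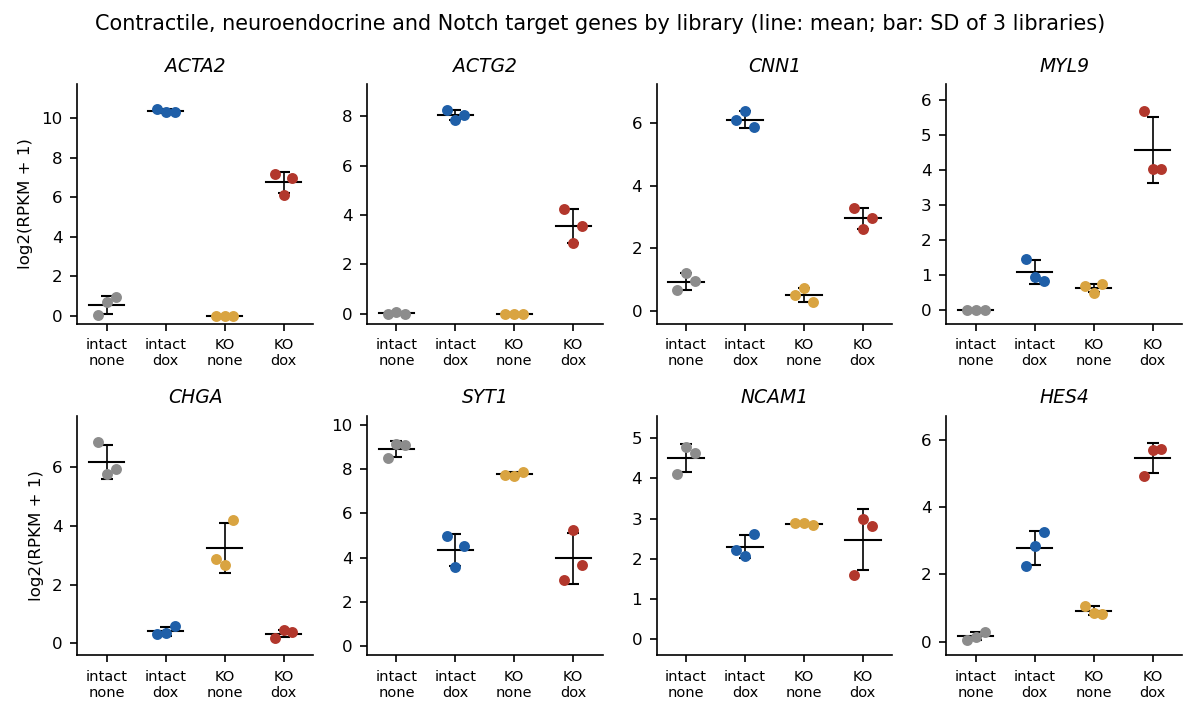
Expression of contractile genes (ACTA2, ACTG2, CNN1, MYL9), neuroendocrine genes (CHGA, SYT1, NCAM1) and the Notch target HES4 in the 12 libraries. The vertical axes show log2(RPKM + 1), each point is a library, lines are means and bars are the SD of 3 libraries. ACTA2, ACTG2 and CNN1 rise less in KO than in intact cells, MYL9 and HES4 rise more, and CHGA and NCAM1 differ between the lines without doxycycline.

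Of 29 Notch pathway genes tested, 6 were higher in KO cells with doxycycline (NOTCH1, JAG2, HES4, HES5, NRARP and MAML3) and 0 lower. The median was 0.36, and over all genes 7.72% were called higher and 8.75% lower. Without doxycycline 2 of the 29 were higher (DTX3, RFNG) and 1 lower (DTX1). After centring within GC bins 5 were higher and the median was 0.01. HES4, a Notch-induced repressor, had 2.26, 2.84 and 3.27 in intact and 4.94, 5.71 and 5.75 in KO cells (difference 2.68, SE 0.24, adjusted p = 4.4e-07), and without doxycycline 0.04, 0.15 and 0.28 against 1.07, 0.86 and 0.81. Its difference grew by 1.92 between the settings (adjusted p = 0.0014). NRARP, a feedback inhibitor of Notch, had 4.12, 3.97 and 5.06 against 4.82, 6.58 and 6.71 (difference 1.65, adjusted p = 0.0023), groups that overlapped in 1 library of each. HES5, a second HES repressor, had 2.82, 2.43 and 3.72 against 3.24, 4.29 and 4.95 with doxycycline and was listed at 0 in all 6 libraries without it. Its call was lost without replicate 2 of the intact cells with doxycycline, where the difference was 0.89, and after GC centring. JAG2, a Notch ligand, was higher in KO cells by 1.62, and the coactivator MAML3 by 1.27.

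The bases before HES4 (RefSeq, GRCh38.p14) hold one copy of TGGGAA, the core letters that the Notch partner RBPJ binds, in capitals.
HES4 (chr1:1000098-1000347, minus strand): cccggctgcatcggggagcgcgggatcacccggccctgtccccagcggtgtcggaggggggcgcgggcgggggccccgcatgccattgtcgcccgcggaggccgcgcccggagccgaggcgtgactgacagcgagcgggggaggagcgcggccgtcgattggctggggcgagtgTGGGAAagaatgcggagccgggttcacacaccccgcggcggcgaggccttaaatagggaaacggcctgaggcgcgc
It begins 76 bases before the start. TGGGAA on either strand occurred in 20.8% of all windows and in 2 of the 6 higher Notch genes (HES4 and HES5), so these short letters are common. Genes were again counted by any of their windows.

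Neuroendocrine genes were lower in the KO line without doxycycline. Of 30 genes tested in this list, 18 were lower in KO cells without doxycycline and 0 higher, against 7.72% and 6.64% of all genes. The median was -1.49. With doxycycline 3 were lower (SYT4, SNAP25, STMN2) and 1 higher (POU4F1), with a median of -0.04. Without replicate 2 of the intact cells with doxycycline SNAP25 and POU4F1 lost their calls, at -0.88 and 0.99, and 2 genes were lower with the drug, and without replicate 2 of the KO cells with doxycycline 7 were. The difference between the settings was called for 13 members, all with a positive sign, against 3.91% of all genes called higher and 3.21% called lower in that test. In intact cells 21 of the 30 fell on doxycycline, and in KO cells, which started lower, 9 did.

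CHGA, the secretory granule protein chromogranin A, had log2 values without doxycycline of 6.85, 5.76 and 5.93 in intact and 2.86, 2.67 and 4.21 in KO cells (difference -2.94, SE 0.34, adjusted p = 8e-06), and with it 0.30, 0.34 and 0.58 against 0.19, 0.44 and 0.38. The groups lay apart without doxycycline and overlapped with it, where both lines lay near 0. CHGB, a related granin, followed, with 4.54, 4.30 and 4.45 against 1.06, 0.62 and 1.31 without doxycycline (difference -3.43, adjusted p = 2.2e-08). NCAM1, a neural adhesion molecule, had 4.10, 4.78 and 4.64 against 2.88, 2.88 and 2.85 (difference -1.64, adjusted p = 0.0013). STMN2, a neuronal tubulin-binding protein, had 5.77, 9.30 and 9.02 against 0.38, 0.54 and 1.23, and was lower in both settings (-7.32 and -2.31). NEUROD1 stayed high in both lines without doxycycline, with 13.03, 14.41 and 14.00 in intact and 12.28, 11.80 and 12.67 in KO cells. YAP1, a marker of non-neuroendocrine SCLC, was higher in KO cells without doxycycline, with 4.36, 4.60 and 4.14 against 5.61, 5.90 and 5.69, and lay at 6.74 to 7.07 in both lines with it.

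The remaining lists are given with their counts, and over all genes 8.75% were called lower and 7.72% higher with doxycycline. Of 39 cell cycle genes tested, CCNB1, CCNB2, PLK1 and BUB1 were lower and CDKN2A higher with doxycycline, but 0 were lower without replicate 2 of the intact cells with doxycycline. AP-1 had JUNB, JUND and MAFK higher and BATF3 lower among 11. JUND had 3.57, 2.89 and 3.63 in intact and 6.52, 6.57 and 6.00 in KO cells with doxycycline (difference 3.00, adjusted p = 3.2e-06) and was higher without it by 1.54. HSPA5 and SDF2L1, chaperones of the endoplasmic reticulum, were higher among 16 stress genes, SDF2L1 by 2.68 (adjusted p = 3.5e-06). YAP and TEAD targets had CYR61 lower among 16, and of 19 genes of the REST and CoREST complex HMG20B was higher in both settings. Of 5 genes tested in a list of responses to doxycycline or selection, PSAT1 and MTHFD2 were lower with the drug, and MTHFD2 without it too. The median of these 5 genes was -0.85 with and -0.29 without the drug. Without replicate 2 of the intact cells with doxycycline the calls with the drug of JUNB, HSPA5, HMG20B and PSAT1 were lost, at 1.17, 1.17, 0.91 and -0.87, and after GC centring those of JUNB, MAFK, BATF3, HMG20B and PSAT1 were. Of 3 tested markers of other SCLC subtypes and cell types, YAP1 was higher without doxycycline.

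Among all genes whose groups did not overlap and whose higher group had a mean of 2 or more, the largest lower calls with doxycycline that were not called without it, and that changed between the settings, were NPPB, ACTG2, UBD, ANGPTL7 and TNMD. NPPB, the natriuretic peptide BNP, had 8.07, 9.12 and 7.73 in intact and 3.49, 2.06 and 3.10 in KO cells (difference -5.42, SE 0.61, adjusted p = 5.1e-06). UBD, the interferon-induced ubiquitin-like protein FAT10, had 6.03, 7.45 and 6.56 against 0.00, 3.11 and 3.42 (difference -4.50, adjusted p = 3.5e-05). ANGPTL7, a secreted angiopoietin-like protein, had 5.05, 4.60 and 3.84 against 0.38, 0.00 and 0.00, and TNMD, the tendon protein tenomodulin, 4.39, 5.92 and 5.24 against 0.82, 0.67 and 1.19. These genes were at 1.07 or less without doxycycline in both lines, except NPPB, which had 0.00, 2.48 and 3.12 in intact cells. MB, myoglobin, had 3.60, 4.68 and 3.82 in intact cells with doxycycline and was listed at 0.00 in the KO libraries, and its call was lost without replicate 2 of the intact cells.

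The largest higher calls of the same kind were PURPL (listed as LINC01021), NPW, NPBWR2, BHLHA15 and MYL9. PURPL, a p53-regulated long non-coding RNA, had 0.00, 0.00 and 0.45 in intact and 4.94, 4.49 and 4.52 in KO cells (difference 4.50, adjusted p = 1.1e-06). NPW, the neuropeptide W precursor, fell on doxycycline in intact cells, from 7.19, 4.98 and 5.74 to 1.34, 1.33 and 1.96, and had 6.41, 6.54 and 6.49 without and 5.62, 6.20 and 5.47 with the drug in KO cells (-0.72, not past the test). Its receptor gene NPBWR2 had 2.75, 4.19 and 4.58 in KO cells with doxycycline and was listed at 0 in the other 9 libraries. BHLHA15, a factor of secretory cells, was listed at 0 in intact cells with doxycycline and had 3.87, 3.57 and 3.57 in KO cells, and without the drug both lines had it at 3.65 to 5.22. SMPD3, a neutral sphingomyelinase, was called in opposite directions, with 1.43, 0.71 and 2.89 against 4.51, 6.60 and 5.05 with doxycycline (3.71) and 2.25, 1.95 and 2.81 against 0.76, 0.86 and 0.42 without it (-1.66).

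Several of the largest differences marked the line in both settings, although the size of some changed between them. CTHRC1, a secreted collagen-related protein, had 3.60 to 6.09 in the 6 intact libraries and was listed at 0.00 in 5 KO libraries and at 0.59 in the other. B3GALNT1, a glycosyltransferase gene on chromosome 3, had 2.12 to 3.79 in intact cells and at most 0.07 in KO cells. LEKR1, on chromosome 3, was listed at 0.00 in all 6 KO libraries and had 3.98, 5.13 and 5.07 in intact cells with doxycycline. Without the drug intact cells had 1.94, 2.75 and 0.00, so the groups overlapped. ST8SIA4, a polysialyltransferase that modifies NCAM1, had 5.26, 5.74 and 5.82 in intact cells against 0.00, 3.11 and 1.43 in KO cells with doxycycline, and the metallothionein gene MT1G 6.80, 6.76 and 6.51 against 5.30, 3.69 and 3.78. In the other direction, the row of the microRNA gene MIR296, which in a polyadenylated library is no measure of the mature microRNA, was at 4.74 to 6.89 in the KO libraries and listed at 0.00 in the intact ones. LDLRAD2 was likewise listed at 0.00 in all intact libraries and had 4.33, 4.40 and 4.11 in KO cells with doxycycline. PCSK1N, an inhibitor of prohormone convertase, had 1.94, 1.08 and 1.65 against 6.51, 6.35 and 6.09 with doxycycline (4.76) and differed by 2.52 without it. The cancer-testis antigen CTAG2 differed by 4.70 and 1.65, and LINGO3 by 4.10 and 3.46. TCIRG1, a subunit of the vacuolar proton pump, differed by 3.13 and 3.33, and COL24A1 by 3.56 and 2.99. The difference changed between the settings for CTAG2 (3.05), PCSK1N (2.24), LDLRAD2 (1.89), CTHRC1 (-1.53) and LEKR1 (-3.16), each with an adjusted p under 0.05 by limma. MMP23A had 3.72, 2.41 and 2.75 in KO cells with doxycycline and was listed at 0.00 in intact cells. CTAG2 and MMP23A have near-identical copies in the genome, and their values depend on how shared reads were split.

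Other large differences were there without doxycycline and were not called with it. GABRA5, a GABA receptor subunit, had 5.00, 6.55 and 6.70 in intact cells without doxycycline, fell to 0.79, 0.97 and 0.43 with it and was listed at 0.00 in all 6 KO libraries. CHRNB2, a nicotinic receptor subunit, had 8.32, 7.25 and 7.29 against 2.57, 3.09 and 3.36 without doxycycline (-4.61, adjusted p = 1.3e-08), and GAP43, a growth cone protein, 5.75, 4.12 and 5.36 against 0.00 in each KO library. SMARCD3, a chromatin remodelling subunit, was the reverse, with 0.00, 2.73 and 1.44 against 5.66, 5.83 and 5.14 without doxycycline (4.16, adjusted p = 3.3e-05). The rows of LINC00299 and of the microRNA gene MIR145 were also higher in KO cells without doxycycline, by 5.17 and 4.54.

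The genes lower in KO cells were not spread evenly over the genome. Genes on chromosome 3 had a median difference of -0.72 with and -0.70 without doxycycline (750 genes), those on chromosome 2 one of -0.57 and -0.54 (903 genes), and those on chromosome 8 one of -0.35 and -0.32 (464 genes). Chromosome 15 had -0.06 with and -0.38 without doxycycline, chromosome 19 had 0.27 and 0.01, and the other chromosomes lay between -0.23 and 0.23. On chromosome 3, 85.5% of genes were below 0 with doxycycline and 32.3% were called lower. Of the 1207 genes with a position that were lower with doxycycline, 518 (42.9%) lay on chromosomes 2, 3 and 8, which held 15.3% of the tested genes with a position. Among genes lower in both settings the share was 277 of 407 (68.1%).

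Long stretches were lower in both settings. Windows of 25 neighbouring genes had medians below -0.5 in both settings for 70.8% of windows on chromosome 3, 49.7% on chromosome 2 and 23.4% on chromosome 8, and for 0 on 18 of the 23 chromosomes. The longest stretch ran from CHL1 to PFKFB4 on chromosome 3 (chr3:238446-48599448, GRCh37, 202 genes), with medians of -0.84 with and -0.93 without doxycycline. On chromosome 2 the longest ran from SLC5A6 to SIX3 (chr2:27422455-45173210, 91 genes), with -0.77 and -0.70. Against the parental H82 libraries, chromosome 3 was at -0.59 and -0.60 in KO cells with and without doxycycline and at 0.16 and 0.06 in intact cells. Chromosome 2 was at -0.49 and -0.47 in KO cells and at 0.03 and 0.04 in intact cells. Chromosome 8 was at -0.49 and -0.45 in KO cells, but also at -0.49 and -0.42 in the REST KO line of the series, while intact cells had -0.09 and -0.13. Around STING1 itself, 21 genes tested within 1 Mb had medians of -0.15 and -0.06. The origin of these stretches was not tested. NEUROD1, IFIH1, SP110, BUB1, MTHFD2, ACTG2 and LINC00299 lie on chromosome 2. MYLK, CD80, LEKR1, B3GALNT1 and GAP43 lie on chromosome 3, and STMN2 and CTHRC1 on chromosome 8. None of the 21 antigen presentation genes tested lies on these chromosomes, but B2M and PDIA3 lie on chromosome 15. Against the parental libraries, chromosome 15 was at -0.44 and -0.41 in KO cells with and without doxycycline. In the REST KO line chromosome 15 was at -0.46 and -0.38, and in intact cells at -0.36 and -0.05.

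**Figure D5:**
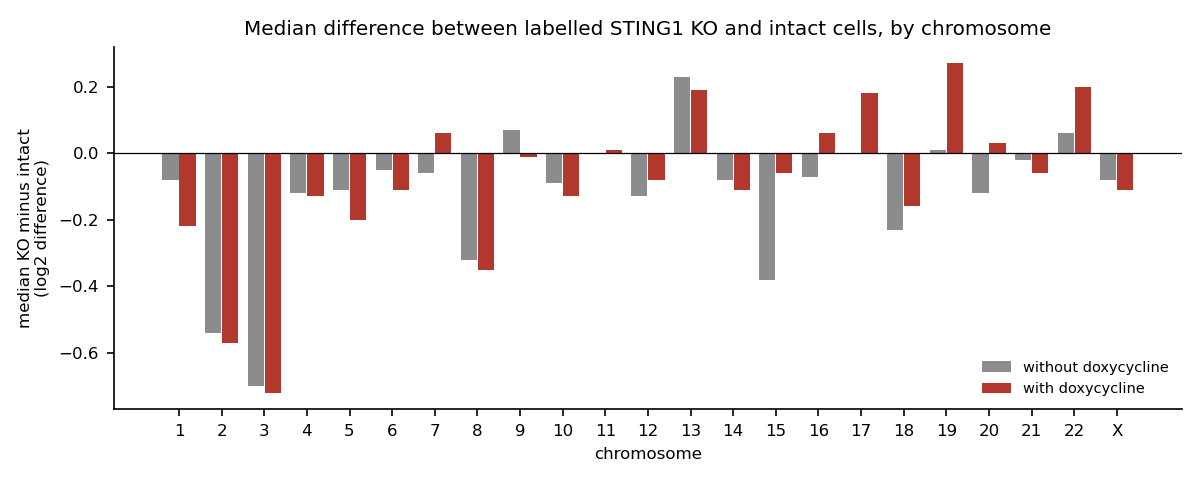
Median log2 difference between labelled STING1 KO and intact cells for the tested genes of each chromosome, without (grey) and with (red) doxycycline. Chromosome 3 reaches -0.70 and -0.72 and chromosome 2 -0.54 and -0.57, while chromosome 15 is low without doxycycline and chromosome 19 is high with it.

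The difference also followed the base composition of genes. With doxycycline the median difference was -0.46 in the quartile of genes with the lowest GC content of the transcript, -0.26 and 0.00 in the middle quartiles and 0.45 in the highest, and without doxycycline -0.31, -0.21, -0.07 and 0.17. Of the genes higher with doxycycline that had a GC content, 744 lay in the highest quartile and 40 in the lowest. Quartiles of transcript length had medians between -0.11 and -0.08. Within libraries, the highest minus the lowest GC quartile was -0.91 to -0.14 in intact cells and 0.27 to 0.43 in KO cells, and the -0.91 was replicate 2 of the intact cells with doxycycline. After centring within bins of GC content, 685 genes were higher and 761 lower with doxycycline, 47.5% of the original calls were made again, and chromosome 3 kept medians of -0.52 and -0.52. The part of GC content in the single results was not tested beyond this, and the lines also differed in relative depth, as given above.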

How the data were processed

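RNA was measured by sequencing of stranded libraries from polyadenylated RNA, 3 for each of the 4 groups. The authors trimmed reads with Cutadapt, aligned them with STAR to hg19 (GRCh37), quantified genes with RSEM, scaled them with the TMM method of edgeR and deposited a table of log2 RPKM values, in which 1 was added to each RPKM before the logarithm. Tool versions are not given in the sources used here. The table holds 60 human libraries, and 39 columns of other lines were not used. It holds no counts, so depth was known only relative to 1 library, no counting interval or count test could be had, and the voom step of the study was replaced by limma 3.58.1 with a mean-variance trend in R 4.3.3, on the 21 libraries of all 7 H82 groups, with Benjamini-Hochberg adjustment. Every p in the text comes from that fit and is two-sided. Differences are on the log2(RPKM + 1) scale, which understates the change of low genes, and are KO minus intact. Genes needed a log2 value of 1 in 3 libraries, and a call needed an adjusted p under 0.05 and a difference of at least 1.

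Members and gene lists were chosen with earlier results of these data known, and the smooth muscle list after values had been seen. Beside list members, the text names STING1 and NOTCH1 and, among calls whose groups did not overlap and whose higher mean was at least 2, the 10 largest in each direction with doxycycline, the 5 largest that changed between settings and were not called without it, the 5 largest called in both settings and the 3 largest called without it alone. Genes at 0 in a whole group were listed with no fold. Alternatives were a pseudocount of 0.1, no filter, no variance trend, quantile or median scaling, fewer groups, no fold minimum and leaving out each library. Leaving out the libraries that stood apart, centring within 20 bins of GC content and dropping chromosomes 2, 3 and 8 were added after seeing the data. Positions and GC content were matched for 13807 genes (99.3%). Promoter windows came from RefSeq. Some genes are not reported here. The fit was tested on simulated data.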

Additional observations from a re-analysis of the deposited data

Results flagged for a closer look

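For 10 of the genes with the largest differences, the difference between labelled STING1 KO and intact cells itself changed with doxycycline, by an interaction term in limma with an adjusted p under 0.05. The values are the log2 difference with doxycycline minus that without it. It was 3.49 for PURPL, 3.71 for NPW, 3.84 for NPBWR2, 2.59 for BHLHA15 and 2.88 for MYL9. It was -3.96 for NPPB, -4.49 for ACTG2, -4.70 for UBD, -4.46 for ANGPTL7 and -4.32 for TNMD. NPBWR2, BHLHA15, MYL9 and ACTG2 were listed at 0 in a whole group, so their values depend on the amount added before the logarithm and are no fold. These genes were picked by size from those called in this test and not called without doxycycline, so their passing was fixed by the choice. The share of all genes called in this test was 3.91% in the positive and 3.21% in the negative direction.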

How the results depend on the processing

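No paired analysis was possible because the columns carry library numbers and no replicate numbers that the groups share. With no fold minimum the calls were 2218 higher and 3231 lower with doxycycline, 1808 and 2998 without it, 3537 and 3457 for the response of intact cells, and 2897 and 2354 for that of KO cells. Centring within GC bins gave 685 higher and 761 lower with doxycycline. Without chromosomes 2, 3 and 8, 681 genes were lower with and 592 without the drug. Quantile scaling lowered the share of calls that were lower from 53.8% to 42.3% without doxycycline and from 53.1% to 44.3% with it, and dropping the 3 chromosomes gave 41.4% and 40.6%.

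The 408 genes higher in both settings were 615 with a pseudocount of 0.1 and 969 with no fold minimum. The 409 lower in both were 619 and 1602 under those settings, 267 after quantile scaling, 215 after GC centring and 130 without the 3 chromosomes. Antigen presentation genes lower without doxycycline, 2 in the report, were 4 with a pseudocount of 0.1, 0 after quantile scaling, 1 after median scaling, 5 with no fold minimum, 0 to 2 with 1 library left out and 1 with the libraries that stood apart left out. Interferon-stimulated genes lower with doxycycline were 10 without the 3 libraries that stood apart, 10 after GC centring and 11 without the 3 chromosomes. Neuroendocrine genes lower with doxycycline were 5 with no fold minimum and 2 to 7 with 1 library left out. GAP43 with doxycycline (-0.24, not called) ranged from -0.55 to 0.11 with 1 library left out and was 0.11 and 0.31 without 2 and 3 libraries that stood apart.

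Leaving out 1 library gave 821 to 1210 higher and 864 to 1450 lower genes with doxycycline. The lowest counts came without replicate 2 of the intact cells with doxycycline, which kept 68.2% of the calls. With no counts, precision rests on the spread of 3 libraries, and differences of genes near 0 could not be resolved.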
